A study of Mus musculus with 4 samples.

Results

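Chemokines are small secreted proteins that attract leukocytes and other migrating cells, and they act through receptors coupled to inhibitory G proteins. The genes described here were chosen by name, as the rows called Ccl, Cxcl, Ccr or Cxcr with a number, together with Cx3cl1, Ccrl1 and Ccrl2. These were 49 of the 24637 rows of the gene table, 31 for ligands and 18 for receptors, with 47 symbols because Ccl25 and Ccrl1 each had a pair of overlapping gene models. Xcl1 and Xcr1 were not analysed here.

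Messenger RNA was sequenced from 4 libraries of mouse embryonic stem cells (ESCs) driven towards cardiomyocytes, as embryoid bodies for 5 days and then on gelatin-coated plates for 9 days. WT (Taf4+/+) and Taf4a-/- were each represented by 2 libraries. The paper describes 2 biological replicates from 2 independent ESC lines of each genotype. The labels number the replicates and do not assign them to lines, so 1 library per line is the reading taken here. All lines came from blastocysts of Taf4a+/- crosses on C57Bl6J, in which the null allele lacks internal exons of the gene of this TFIID subunit, and all were kept on mouse embryonic fibroblast feeders before differentiation. The question was how the loss of Taf4 changes gene expression during cardiac differentiation, and it is asked here of the chemokine ligands and receptors.

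The libraries held 21732746 to 27733034 reads on genes. Values, always given for replicate 1 before replicate 2, are normalized counts, that is, reads per gene divided by 1 size factor per library, and a difference is the log2 fold change of Taf4a-/- over WT on log2(normalized count + 1), which understates the change of low genes. A gene was tested with limma if its mean over the 4 libraries reached 10 normalized counts, and it was called higher or lower at a Benjamini-Hochberg adjusted p under 0.05 over all 16926 genes tested. Taf4a itself had 889 and 678 normalized counts in WT and 1722 and 1799 in the libraries labelled Taf4a-/- (log2 fold change 1.18, SE 0.16, adjusted p = 0.00569 from limma). These gene-level counts do not separate the deleted exons, so they are no check of the deletion, and Taf4a-/- below means the libraries with that label. The cardiomyocyte markers fixed for this comparison, such as Tnnt2 and Actc1, summed to 24836 and 26506 normalized counts in WT and to 2157 and 2624 in Taf4a-/-. Of them, 9 of 9 tested were called lower, beside 17.3% of all genes tested.

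Ligands are classed by the spacing of the first cysteines of the mature protein, which are adjacent in the CC class and separated by 1 residue in the CXC class and by 3 residues in the CX3C class. Among the 31 ligand rows, a coding sequence with adjacent cysteine codons was found for 14, with 1 codon between them for 12 and with 3 codons between them for 1 (Cx3cl1). For 2 rows no such codons were found between codons 21 and 61, and 2 had no complete coding sequence in the NCBIM37 annotation. The stretches below hold these codons in capitals with 10 codons on each side, read 5′ to 3′ on the coding strand, for 3 CC ligands that were called lower, for 1 CXC ligand that was called lower, and for the most expressed CXC ligand and the CX3C ligand, which were not called. Ccl3, Ccl9 and Ccl12 lie on chromosome 11, Cxcl15 on chromosome 5, Cxcl12 on chromosome 6 and Cx3cl1 on chromosome 8.
Ccl3: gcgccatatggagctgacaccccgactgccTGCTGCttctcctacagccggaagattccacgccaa
Ccl9: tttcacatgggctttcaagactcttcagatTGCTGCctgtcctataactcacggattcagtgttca
Ccl12: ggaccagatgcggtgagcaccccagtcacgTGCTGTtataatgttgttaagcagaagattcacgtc
Cxcl15: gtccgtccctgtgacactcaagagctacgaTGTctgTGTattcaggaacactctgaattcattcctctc
Cxcl12: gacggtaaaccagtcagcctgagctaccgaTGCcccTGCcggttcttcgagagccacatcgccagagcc
Cx3cl1: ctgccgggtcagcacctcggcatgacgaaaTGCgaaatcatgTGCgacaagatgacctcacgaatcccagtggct

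Of the 31 ligand rows, 17 reached the mean of 10 and were tested, and 10 of these were called lower in Taf4a-/-, against 17.3% of all genes tested. None of the 17 was called higher by limma, and 0 were higher at an unadjusted p under 0.05 or with limma's voom on the recovered reads, against 11.3% of all genes tested that were called higher. The lower ones were Ccl2, Ccl3, Ccl4, Ccl6, Ccl7, Ccl9, Ccl12, Cxcl14, Cxcl15 and Cxcl16, ligands that recruit monocytes and other leukocytes for the most part. Of the 18 receptor rows, 9 were tested, of which 4 were called lower (Ccr1, Ccr2 and Ccrl2 among them) and 0 higher, again with 0 higher at an unadjusted p under 0.05 and 0 with voom. The median log2 fold change was -1.67 over the ligands tested and -0.60 over the receptors tested, beside -0.01 over all genes. These medians moved with the filter, to -0.32 for ligands and -3.61 for receptors when a mean of 50 was required, and to -0.89 for ligands with no filter. At a mean of 50 only 4 receptors were tested, of which 2 were called lower. Their median fell in the gap between those and Cxcr7 and Cxcr4, at -0.28 and 0.20, so it describes no single receptor. With quantile normalization the median of all genes moved to 0.11, and the share of calls that were higher moved from 39.4% to 52.2%, while 7 ligands and 3 receptors were called lower and 0 were called higher. Among the 26 members tested, 11 reached the mean of 10 through the WT libraries alone, so they had to differ. Their number is no support, and they lower the medians given above. All 11 were called lower, whereas of the members that reached it in both genotypes 3 of 10 ligands (Ccl2, Cxcl14 and Cxcl16) and 0 of 5 receptors were called lower. In bulk RNA, fewer cells of a type and less RNA per cell cannot be told apart.

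Ccl3 and Ccl4, also known as macrophage inflammatory proteins, are made by activated macrophages. Ccl3 had 106 and 89.4 normalized counts in WT and no read in either Taf4a-/- library. Against a floor of 3 reads per library this is at least 31.2-fold lower (log2 fold change -6.62, SE 0.495, adjusted p = 0.00125 from limma). Ccl4 had 43.0 and 69.6 normalized counts in WT against 0 and 3.32, the latter being 3 reads. Its WT mean was 35.4 times that of Taf4a-/-, with a 95% counting interval from 11.8 to 174 (log2 fold change -4.74, SE 0.793, adjusted p = 0.0101 from limma). Such intervals, from the pooled reads of each genotype, and floors cover counting error alone and leave out the spread between libraries. The reads were not marked by molecule, so even counting error is not fully covered. The Ccl4 call was lost without WT replicate 2 (adjusted p = 0.0772).

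Ccl6 and Ccl9 are CC ligands of rodents that bind Ccr1. Per kilobase of exon Ccl9 was the most abundant of the ligands called lower in WT. The WT libraries had 513 and 745 normalized counts of it, against 0 and 15.5 in Taf4a-/- (log2 fold change -7.25, SE 1.20, adjusted p = 0.00987 from limma). Ccl6 had 122 and 156 in WT and 2.94 and 8.85 in Taf4a-/- (log2 fold change -4.48, SE 0.530, adjusted p = 0.00380). The groups did not overlap for either gene, and for both Taf4a-/- replicate 1 was the lower of the mutant libraries. Both genes are among those called lower, so the lack of overlap adds no support. The Ccl9 call was lost without WT replicate 1 (adjusted p = 0.0556) and without WT replicate 2 (adjusted p = 0.0894), with log2 fold changes of -7.52 and -6.98, whereas Ccl6 remained called without each library in turn.

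Ccl2, Ccl7 and Ccl12 are monocyte chemoattractants that act on Ccr2, and they differed widely in size of change. Ccl12 had 30.7 and 67.5 normalized counts in WT and no read in Taf4a-/-, at least 15.7-fold lower (log2 fold change -5.54, SE 0.629, adjusted p = 0.00350 from limma). Ccl2 had 110 and 203 in WT and 49.9 and 39.8 in Taf4a-/-, so it was still read in both mutant libraries (log2 fold change -1.72, SE 0.374, adjusted p = 0.0216). Ccl7 had 27.2 and 118 in WT and 11.7 and 4.42 in Taf4a-/- (log2 fold change -2.80, SE 0.792, adjusted p = 0.0445). The WT libraries of Ccl7 differed by 4.36 times, the widest gap between WT libraries among the members tested. Without WT replicate 2 the adjusted p was 0.171 for Ccl7 and 0.0881 for Ccl2, and without Taf4a-/- replicate 2 that of Ccl7 was 0.0858.

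All 3 CXC ligands called lower were still read in both Taf4a-/- libraries. Cxcl16, a ligand tethered to the membrane that binds Cxcr6, had 158 and 185 normalized counts in WT and 96.9 and 86.3 in Taf4a-/- (log2 fold change -0.89, SE 0.242, adjusted p = 0.0393 from limma), and 18.3% of its exon bases are shared with Zmynd15, so some reads may belong to that gene. Cxcl14, expressed by many epithelial and stromal cells, had 146 and 70.7 in WT and 30.3 and 32.1 in Taf4a-/- (log2 fold change -1.67, SE 0.416, adjusted p = 0.0313). Cxcl15, known as lungkine, had 21.9 and 89.4 in WT and 2.94 and 4.42 in Taf4a-/- (log2 fold change -3.30, SE 0.727, adjusted p = 0.0224). In all 3 the lower WT library lay above both mutant libraries, which adds no support, since they were taken as genes called lower. The Cxcl16 call was lost without any 1 of the 4 libraries (adjusted p from 0.0580 to 0.183), Cxcl14 lost its call without WT replicate 1 or either Taf4a-/- library (adjusted p from 0.0551 to 0.0777), and Cxcl15 without WT replicate 2 (adjusted p = 0.0679). With voom on the recovered reads Cxcl14, Cxcl15 and Ccl7 were not called (adjusted p of 0.0526, 0.0510 and 0.0837).

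**Figure D1:**
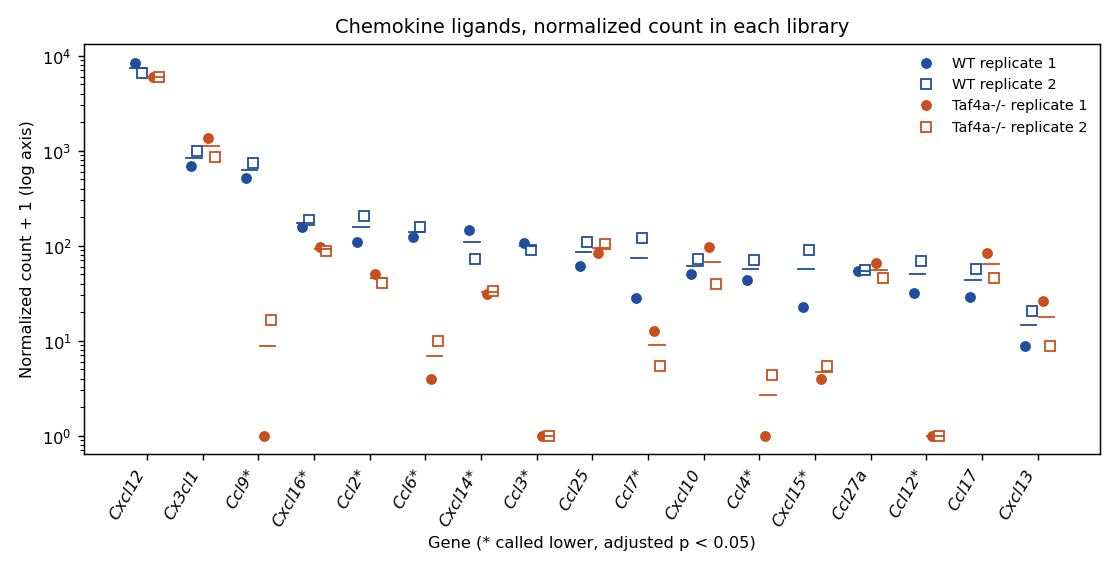
Normalized count + 1 (log axis) of the 17 ligand genes tested in each of the 4 libraries, ordered by WT mean, with circles for replicate 1, squares for replicate 2, WT in blue, Taf4a-/- in orange and a short line at each genotype's mean. Asterisks mark the 10 called lower, and Ccl3 and Ccl12 sit at 1, which is no read, in both Taf4a-/- libraries.

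The most abundant ligand per kilobase of exon, Cxcl12, a chemoattractant of progenitor cells in many developing organs, had 8466 and 6551 normalized counts in WT and 5967 and 5982 in Taf4a-/-. The log2 fold change was -0.32 (SE 0.152, adjusted p = 0.165 from limma), with a 95% interval of the fold from 0.621 to 1.04 times WT. It was not called with all libraries, and without WT replicate 2 it was called lower (log2 fold change -0.50, adjusted p = 0.0455). Cx3cl1, a membrane-bound ligand also named fractalkine, had 692 and 985 in WT and 1370 and 864 in Taf4a-/-, so the genotypes overlapped (log2 fold change 0.40, SE 0.268, adjusted p = 0.301). Per kilobase of exon, Cxcl12 and Cx3cl1 ranked 1 and 2 among the ligands in both genotypes, at 918 and 226 normalized counts per kb in WT and 731 and 301 in Taf4a-/-. Ccl9 ranked 3 in WT at 207 per kb and 15 in Taf4a-/- at 2.54 per kb. Cxcl12 made up 67.7% to 82.0% of the summed ligand counts of each library, so the sum over all ligands says little about the others.

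The remaining 5 ligands tested overlapped between the genotypes. Ccl17, a ligand of Ccr4, had 28.1 and 56.1 normalized counts in WT and 83.2 and 44.2 in Taf4a-/-. Cxcl10, induced by interferon and a ligand of Cxcr3, had 49.1 and 70.7 in WT and 94.95 and 38.7 in Taf4a-/-. Ccl27a had 52.6 and 55.1 in WT and 65.6 and 44.2 in Taf4a-/-, and Cxcl13, which guides B cells, had 7.89 and 19.7 against 25.5 and 7.74. Ccl25, a thymic ligand of Ccr9, had 59.6 and 109 in WT and 82.2 and 103 in Taf4a-/-. These Ccl25 values belong to the model that passed the filter, and 41.6% of its exon bases are shared with the other model, which had at most 3 reads in any library. Over the 7 ligands tested and not called, log2 fold changes ran from -0.32 to 0.60.

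The 14 ligand rows under the mean of 10 had at most 12.5 normalized counts in a library. Ccl1, Ccl24, Cxcl2, Cxcl3, Cxcl9, Cxcl17 and the second model of Ccl25 had 3 reads or fewer in every library. Ccl5, Ccl11, Ccl20 and Cxcl11 exceeded 3 reads in 1 library each, Cxcl5 and Ccl22 in 2 and Cxcl1 in 3. Ccl22, which shares Ccr4 with Ccl17, had 9.64 and 12.5 normalized counts in WT and 0 and 1.11 in Taf4a-/-, and its WT mean was 21.1 times that of Taf4a-/- with a 95% counting interval from 3.42 to 868. Ccl22 was singled out after its values were seen, and with no filter on the mean it was called lower (log2 fold change -3.04, adjusted p = 0.0224 from limma). For the Cxcr2 ligands Cxcl1, Cxcl2, Cxcl3 and Cxcl5, which attract neutrophils, no difference was detectable at this depth.

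Ccr1, a receptor found on monocytes and macrophages, was called lower. It had 136 and 221 normalized counts in WT and no read in Taf4a-/-, at least 57.1-fold lower (log2 fold change -7.45, SE 0.494, adjusted p = 0.00102 from limma). Ccr2, the receptor of inflammatory monocytes, had 45.6 and 49.9 in WT and 0 and 5.53 in Taf4a-/- (log2 fold change -4.25, SE 0.905, adjusted p = 0.0204). Ccrl2, an atypical receptor that binds chemerin without signalling, had 30.7 and 26.0 in WT and 7.83 and 5.53 in Taf4a-/- (log2 fold change -1.94, SE 0.459, adjusted p = 0.0269). Ccr1 remained called without each library in turn. The Ccr2 call was lost without WT replicate 1 or 2 (adjusted p of 0.0825 and 0.115) and that of Ccrl2 without any 1 of the 4 libraries (0.0528 to 0.103), so 2 receptors were called lower without either WT library.

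**Figure D2:**
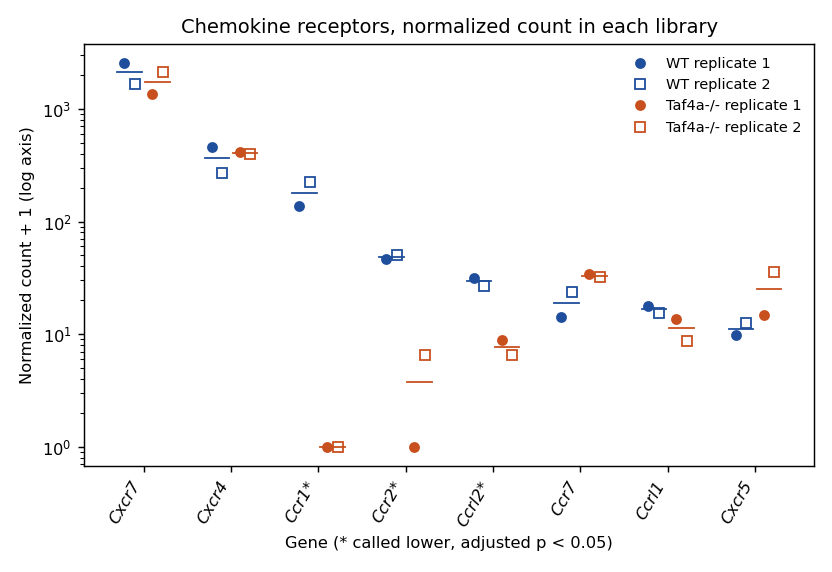
Normalized count + 1 (log axis) of 8 receptor genes tested in each of the 4 libraries, ordered by WT mean, with circles for replicate 1, squares for replicate 2, WT in blue, Taf4a-/- in orange and a short line at each genotype's mean. Cxcr7 and Cxcr4 overlap between the genotypes, and Ccr1 sits at 1, which is no read, in both Taf4a-/- libraries.

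Cxcr4 and Cxcr7 (Ackr3), the signalling and the scavenging receptor of Cxcl12, were, of the 18 receptor rows chosen by name, the most abundant per kilobase of exon in every library. Cxcr7 had 2547 and 1667 normalized counts in WT and 1352 and 2127 in Taf4a-/- (log2 fold change -0.28, SE 0.277, adjusted p = 0.475 from limma), and its fold lay between 0.516 and 1.31 times WT at 95%. Cxcr4 had 459 and 271 in WT and 413 and 397 in Taf4a-/- (log2 fold change 0.20, SE 0.267, adjusted p = 0.602), with a fold between 0.732 and 1.8. The genotypes overlapped for both. Together the pair took 75.6% to 87.6% of the summed receptor counts in WT and 93.8% and 96.3% in Taf4a-/-. Cxcr7 and Cxcr4 stood at 629 and 202 normalized counts per kb in WT and 520 and 224 in Taf4a-/-. Rank 3 went to Ccr1 in WT, at 63.1 per kb, and to Ccr7 in Taf4a-/-, at 16.2 per kb.

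Ccr7, which guides dendritic cells and T cells to lymph nodes, had 13.2 and 22.9 normalized counts in WT and 33.3 and 31.0 in Taf4a-/- (log2 fold change 0.85, adjusted p = 0.189 from limma). Cxcr5, the B cell receptor of Cxcl13, had 8.77 and 11.4 in WT and 13.7 and 34.3 in Taf4a-/- (log2 fold change 1.05, adjusted p = 0.211). In these 2 genes both mutant libraries lay above both WT libraries, and neither passed the test. The share of all genes so ordered is not given here, so the order is no support for a rise. Ccrl1 (Ackr4), a scavenger of Ccl25 and related ligands, had 16.7 and 14.5 in WT and 12.7 and 7.74 in Taf4a-/- (log2 fold change -0.60, adjusted p = 0.389), and 15.6% of its exon bases are shared with Acad11 or the other model of Ccrl1. The 9 receptor rows under the mean of 10 had at most 17.7 normalized counts in a library. Ccr3, Ccr8 and Ccr9 had 3 reads or fewer in every library, Ccr4, Ccr10, Cxcr3 and the second model of Ccrl1 exceeded 3 reads in 2 libraries each, and Cxcr2 and Cxcr6 in 3. Cxcr2, the neutrophil receptor, had 8.77 and 17.7 in WT and 3.92 and 0 in Taf4a-/-.

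**Figure D3:**
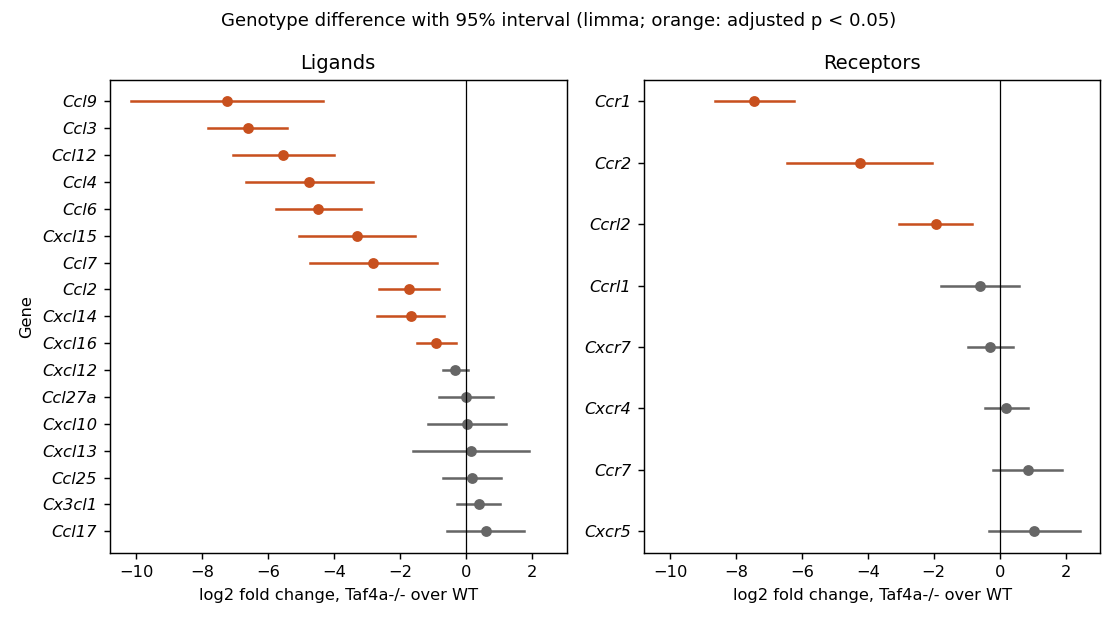
Log2 fold change of Taf4a-/- over WT with its 95% interval from limma for the 17 ligands and 8 receptors plotted, ordered within each panel, with orange for an adjusted p under 0.05 and grey for the rest. The 13 in orange lie to the left of 0, from -7.45 for Ccr1 to -0.89 for Cxcl16, and the intervals of the 12 in grey cross 0.

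Ligands were then set beside their receptors. In the Ccr2 axis all members tested were lower, namely Ccl2, Ccl7, Ccl12 and Ccr2, beside 17.3% of all genes tested. The same held for Ccl3, Ccl6 and Ccl9 with Ccr1. Of these genes only Ccl2 reached the mean of 10 in both genotypes. The others passed the filter through the WT libraries alone, so they had to differ and their number is no support. In the Cxcl12 axis none of the ligand, Cxcr4 and Cxcr7 was called. Cx3cl1 was not called, while its receptor Cx3cr1, a marker of tissue macrophages that falls outside the names used here, had 1462 and 2067 normalized counts in WT and 0 and 7.74 in Taf4a-/- (log2 fold change -9.20, SE 0.942, adjusted p = 0.00269 from limma). Cxcl16 was called lower and its receptor Cxcr6 was too low to test, with 4 to 12 reads in 3 libraries and none in Taf4a-/- replicate 2. Pf4 and Ppbp, platelet chemokines of the CXC class with other names, were also lower, with log2 fold changes of -4.48 (SE 0.284, adjusted p = 0.000976) and -2.96 (SE 0.380, adjusted p = 0.00469).

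By class, 7 of 10 CC ligands tested, 3 of 6 CXC ligands and 0 of 1 CX3C ligands were called lower, beside 17.3% of all genes tested. Of those called lower, only Ccl2, Cxcl14 and Cxcl16 reached the mean of 10 in both genotypes. The others had to differ, so these counts do not compare the classes. Many of these genes sit in clusters, given here in NCBIM37 (mm9). On chromosome 11, between 81849073 and 82119192, the 3 genes tested (Ccl2, Ccl7 and Ccl12) were all lower, and the neighbours Ccl1 and Ccl11 were too low to test. Further along chromosome 11, between 83339280 and 83478185, the 4 tested (Ccl3, Ccl4, Ccl6 and Ccl9) were lower and Ccl5 was too low. On chromosome 9, Ccr1, between 123876959 and 123883525, and Ccr2, between 124016689 and 124028296, were both lower. On chromosome 8, between 97269490 and 97335935, neither Cx3cl1 nor Ccl17 was called. On chromosome 5, between 91188325 and 91334935, Cxcl15 was tested and lower, and its neighbours Cxcl1, Cxcl2, Cxcl3 and Cxcl5 were too low to test. Of these cluster genes called lower, all but Ccl2 passed the filter through the WT libraries alone. That neighbours were lower together is therefore no support for a shared change.

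Promoters that hold a motif match are shown for Ccl9, Ccl3 and Ccr1, as the 250 bases before the start in RefSeq (GRCm38.p6). They read 5′ to 3′ on the strand of the gene, and as examples they are no support for a shared change. Capitals mark matches to the kappaB consensus, the site of NF-kappaB factors, in Ccl9 and to the PU box GAGGAA, a site of the myeloid factor PU.1, on either strand in Ccl3 and Ccr1. The Ccl9 stretch is chr11:83578637-83578886 on the minus strand, that of Ccl3 is chr11:83649379-83649628 on the minus strand and that of Ccr1 is chr9:123968693-123968942 on the minus strand.
Ccl9: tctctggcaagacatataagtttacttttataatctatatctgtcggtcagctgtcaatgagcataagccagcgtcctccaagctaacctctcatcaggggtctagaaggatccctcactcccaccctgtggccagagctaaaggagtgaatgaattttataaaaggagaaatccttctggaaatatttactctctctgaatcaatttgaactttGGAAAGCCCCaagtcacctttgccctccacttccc
Ccl3: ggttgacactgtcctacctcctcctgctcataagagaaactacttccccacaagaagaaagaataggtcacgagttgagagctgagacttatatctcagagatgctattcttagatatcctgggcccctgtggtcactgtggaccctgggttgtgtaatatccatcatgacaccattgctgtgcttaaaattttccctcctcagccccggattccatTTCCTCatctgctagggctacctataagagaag
Ccr1: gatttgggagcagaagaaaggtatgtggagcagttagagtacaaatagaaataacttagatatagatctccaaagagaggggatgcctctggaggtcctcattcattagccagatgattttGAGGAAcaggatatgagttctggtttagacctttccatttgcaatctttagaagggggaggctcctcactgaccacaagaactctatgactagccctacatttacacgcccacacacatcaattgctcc

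RefSeq windows of 300 bases, from 250 before to 50 after a start, were found for 33 of the 47 symbols, among them 9 of those called lower. The kappaB consensus was found in 4.51% of all 32851 such windows, in 2 of 11 windows of members called lower (Ccl9 and Ccrl2, the latter with 3 overlapping windows) and in 7 of 27 windows of other members, which include Cxcl1, Cxcl2, Cxcl3 and Cxcl10. The PU box was found in 28.3% of all windows, in 3 of 11 windows of members called lower (Ccl3, Ccl12 and Ccr1) and in 9 of 27 of the others. The windows of Ccl6 and Ccr2, neighbours of the genes shown and also called lower, held neither motif. Both strands were searched, and matches of the 2 motifs overlapped in 1 window, that of Ccr3. A match says that the letters are present and nothing of binding.

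The genes downstream of the receptors were read from a list of 45, all of which were tested. Of these, 20 were called lower and 0 higher by limma, beside 17.3% and 11.3% of all genes tested, with 1 higher at an unadjusted p under 0.05, and voom called 19 lower and 0 higher. Their median log2 fold change was -0.40, beside -0.01 over all genes. The largest falls were those of Rgs1, which shuts off receptor signalling in leukocytes, with 49.97 and 62.3 normalized counts in WT and 0 and 1.11 in Taf4a-/- (log2 fold change -5.29, SE 0.595, adjusted p = 0.00339 from limma), and of Rac2, the Rac GTPase of blood cells, with 296 and 445 in WT and 4.89 and 16.6 in Taf4a-/- (log2 fold change -5.16, SE 0.559, adjusted p = 0.00309). By role, 4 of 9 G protein genes, 3 of 9 for desensitisation, 5 of 9 for second messengers, 3 of 11 for migration and 5 of 7 kinase genes were lower. Among the genes called lower, Rgs1 and Dock2 passed the filter through the WT libraries alone, so they had to differ.

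Genes that induce chemokine transcription were taken from a list of 33, of which 27 were tested, 13 were lower and 1 was higher, beside 17.3% and 11.3% of all genes tested. The higher one was Ikbkb, a kinase that activates NF-kappaB, with 1029 and 974 normalized counts in WT and 1661 and 1537 in Taf4a-/- (log2 fold change 0.67, SE 0.122, adjusted p = 0.0129 from limma). The NF-kappaB genes Nfkb1 and Rela and the inhibitor Nfkbia were not called, with log2 fold changes of -0.06, -0.07 and -0.03. Il1b, an inflammatory cytokine, had 58.7 and 64.4 in WT and no read in Taf4a-/- (log2 fold change -5.97, SE 0.523, adjusted p = 0.00174), and Tlr4, the endotoxin receptor, had 161 and 170 in WT and 6.85 and 13.3 in Taf4a-/- (log2 fold change -3.98, SE 0.406, adjusted p = 0.00268). By role, 2 of 12 factors, 2 of 3 cytokines and 9 of 12 cytokine and Toll receptors were lower, the share of the factors being near that of all genes tested. The 2 cytokines, Tnf and Il1b, passed the filter through the WT libraries alone, so they had to differ and their number is no support. The median of the list was -0.69, beside -0.01 over all genes.

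Of 17 genes whose products hold chemokines on matrix or cut them, 15 were tested, of which 10 were lower and 0 higher by limma, beside 17.3% and 11.3% of all genes tested, 0 being higher at an unadjusted p under 0.05 and with voom, and the median was -0.62. The largest falls were those of the matrix proteoglycans Dcn, with 7644 and 10625 normalized counts in WT and 302 and 436 in Taf4a-/- (log2 fold change -4.63, SE 0.231, adjusted p = 0.000556 from limma), and Bgn, with 2336 and 4439 in WT and 147 and 196 in Taf4a-/- (log2 fold change -4.24, SE 0.316, adjusted p = 0.00125). Dcn is also in the stromal fibroblast markers. Dpp4, the protease that inactivates Cxcl12, was lower as well, with 1988 and 2536 in WT and 789 and 442 in Taf4a-/- (log2 fold change -1.92, adjusted p = 0.00689), and was named after its values were seen.

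Markers of some cell types were lower, as were the chemokine genes called lower, while those of others were not called or were higher. The part of cell types in the results was not tested. All 16 macrophage markers were tested and called lower, beside 17.3% of all genes tested. Only Csf1r, Cd68, Mrc1 and Laptm5 reached the mean of 10 in both genotypes. The rest passed the filter through the WT libraries alone, so they had to differ, and neither their number nor the median of the list is support. The median log2 fold change of all 16 was -6.47, and their summed level was 15365 and 19408 normalized counts in WT and 356 and 739 in Taf4a-/-. Of them, Emr1, C1qa, C1qb, C1qc and Tyrobp had no read in Taf4a-/- replicate 1, and C1qa had none in replicate 2. The gene of PU.1, listed as Sfpi1, had 324 and 343 in WT and 2.94 and 14.4 in Taf4a-/- (log2 fold change -5.43, adjusted p = 0.00378 from limma). Neutrophil markers were at or near 0, with 6 of 8 found, none reaching the mean of 10 and sums of 7.01 to 20.8 in all libraries. Of 6 lymphocyte markers found, 1 was tested (Cd79b, called lower, which passed the filter through WT alone), and sums were 18.6 to 35.9.

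For the other cell types, 0 of 10 endothelial markers were called by limma, with 3 lower at an unadjusted p under 0.05 and 0 called by voom, and their sums were 14043 and 9444 in WT and 7451 and 12656 in Taf4a-/-. Of 10 stromal fibroblast markers 8 were lower (median -3.56), with sums of 441377 and 622614 in WT and 50558 and 63134 in Taf4a-/-. Visceral endoderm markers were lower in 8 of 8 (median -6.26), of which Alb and Trf passed the filter through the WT libraries alone. Pluripotent markers were higher in 7 of 8 (median 2.76). Over all genes tested, 17.3% were called lower and 11.3% higher. The ligands called lower summed to 1276 and 1793 in WT and 195 in each Taf4a-/- library. The receptors tested and not called summed to 3044 and 1987 against 1825 and 2597, and the ligands tested and not called to 9354 and 7847 against 7688 and 7084.

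**Figure D4:**
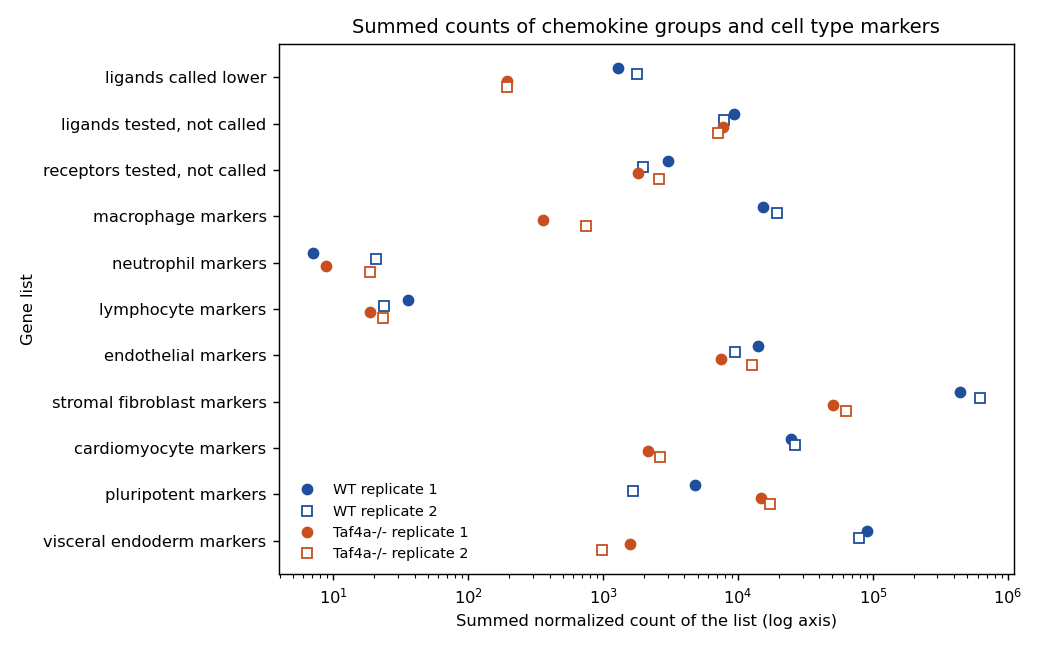
Summed normalized counts (log axis) of the chemokine groups and of the cell type marker lists in each of the 4 libraries, with circles for replicate 1, squares for replicate 2, WT in blue and Taf4a-/- in orange. The ligands called lower separate by genotype by the choice of genes, the macrophage markers lie at 15365 and 19408 in WT and at 356 and 739 in Taf4a-/-, and the endothelial markers overlap.

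The replicates of a genotype were not alike. Among the 14 members called lower, Taf4a-/- replicate 1 had no read for 7 genes and replicate 2 for 3, and WT replicate 2 lay above WT replicate 1 in 11. The sum of the macrophage markers was larger in replicate 2 of each genotype. Between the WT libraries, 4 of the 26 members tested differed by over 2-fold upwards in replicate 2, and 1, Cxcl14, had less than 0.5 times the count of replicate 1.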

How the data were processed

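Poly(A) RNA of 4 libraries was prepared with TruSeq RNA v2, a kit that does not keep the strand. The submitters' processing notes name CASAVA 1.8, TopHat 1.3.3, HTSeq 0.5.3p1, DESeq and the mm9 genome. The authors deposited read counts per gene divided by 1 DESeq size factor per library, with decimal commas. Dividing by the value of 1 read gave whole numbers for 100% of values (tolerance 0.1) and size factors of 0.904 to 1.14. All 24637 gene identifiers were found in the NCBIM37 annotation, which gave coordinates, exon lengths and shared exon bases.

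Genotypes were those of the labels, and no source pairs the lines across genotypes. The difference was fitted by lmFit and eBayes of limma 3.58.1 (R 4.3.3) with a trend of the variance (2 residual and 4.17 prior degrees of freedom) on log2(normalized count + 1) for genes with a mean of at least 10, after the script was tested on simulated data. Lower bounds of a fold set a genotype without reads at 3 reads per library. P-values measure the spread between these libraries. The members, gene lists and marker lists were chosen with earlier results of these data known. The values of 1 gene counted among the members are not reported here. Every other member with a mean of at least 10 was named, as were Taf4a, Cx3cr1 and the 2 largest rises and falls among called genes of each pathway list; Pf4, Ppbp, Sfpi1, Dpp4, Nfkb1, Rela, Nfkbia, Cd79b, Ccl22 and the markers at 0 were named after their values were seen. As alternatives, the fit was repeated with a replicate block, without each library, and with another pseudocount, filter, scaling, threshold or variance model, and equal totals and voom were added after the data were seen. Plots used matplotlib 3.10.9 (Python 3.11.15).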

Additional observations from a re-analysis of the deposited data

How the results depend on the processing

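No ligand or receptor was called higher under any alternative run, and Ccl3, Ccl6, Ccl12 and Ccr1 were called lower under each alternative that gave a value. With a mean of at least 50 required, 5 ligands and 2 receptors were called lower, since Ccl3, Ccl4, Ccl7, Ccl12, Cxcl15, Ccr2 and Ccrl2 were no longer tested. Without a variance trend, 6 ligands and 3 receptors were lower, as Ccl2 (adjusted p = 0.0512), Ccl7 (0.101), Cxcl14 (0.0623), Cxcl15 (0.0571) and Ccr2 (0.0597) lost their calls, and 856 genes were higher and 1741 lower over all genes, and the cause was not tested. At an adjusted p under 0.01 the counts were 4 ligands and 2 receptors lower, with 331 genes higher and 1119 lower, and at 0.1 there were 2903 genes higher. With fewer samples, leaving out each library in turn gave 5 to 8 ligands and 2 to 3 receptors lower, 624 to 2476 genes higher and 1222 to 3038 lower. These fits assume that the lone library of a genotype varies like the others. The ligands counted without WT replicate 2 included Cxcl12, which was not called in the main fit, so fewer main calls were kept there than were counted.

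The signs that reversed when a library was left out belonged to genes that were not called. Over the 4 fits that leave out a library, log2 fold changes ran from -0.28 to 0.28 for Ccl27a, -0.59 to 0.68 for Cxcl10, -0.64 to 0.96 for Cxcl13, -0.24 to 0.62 for Ccl25, -0.61 to 0.046 for Cxcr7 and -0.18 to 0.58 for Cxcr4. The labels give both genotypes the same replicate numbers, and deviations of same-numbered libraries correlated at 0.0118. That value rests on a single difference per genotype, so it cannot settle whether the numbers pair the libraries. With the replicate block 8 ligands and 4 receptors were lower, and Ccl7 (adjusted p = 0.0522) and Cxcl16 (adjusted p = 0.0650) were not called. Quantile normalization ended the calls of Ccl7, Cxcl14, Cxcl16 and Ccrl2. TMM factors, edgeR and DESeq2 were planned on the recovered reads and were not run. Depth left 23 of the 49 rows with too few reads to test.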
